A study of Homo sapiens with 18 samples.

Results

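The Hippo kinase cassette and its scaffolds are described here as 10 genes, LATS1, LATS2, STK3, STK4, SAV1, NF2, WWC1, PTPN14, AMOTL1 and AMOTL2, picked by gene symbol from the 30954 genes counted in H2052 cells. All 10 had a row in that table and in the 19284-gene table of H226 cells. Both are human pleural mesothelioma cell lines. H2052 is described in the study as mutant for NF2 and LATS2, and H226 as lacking NF2. PolyA RNA was sequenced after 24 h in 1 µM VT107, an inhibitor of TEAD palmitoylation, or in DMSO. The groups were NF1 mutant H2052 cells in VT107, NF1 mutant H2052 cells in DMSO, parental H2052 cells in VT107, parental H2052 cells in DMSO, H226 cells in VT107 and H226 cells in DMSO, with 3 libraries each. The NF1 mutant cells were made by lentiviral Cas9 and an NF1 guide with drug selection and were set against parental cells. Which guide they carry is not given in the sources used here.

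In the Hippo pathway the MST kinases, encoded by STK3 and STK4, act with the adaptor SAV1 to activate the LATS kinases, which phosphorylate YAP and TAZ and keep them out of the nucleus. NF2 (Merlin) and WWC1 (KIBRA) are upstream scaffolds that bring this cassette to the membrane. PTPN14 and the angiomotins AMOTL1 and AMOTL2 bind YAP and hold it outside the nucleus or help LATS to act on it. Several of these inhibitors, among them LATS2 and AMOTL2, are known as transcriptional targets of YAP/TAZ-TEAD, which makes them a negative feedback on the pathway. NF2 and LATS2 are recurrently lost in mesothelioma.

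Counts assigned to genes summed to between 3285363 and 5489092 in NF1 mutant libraries and between 10950284 and 13418485 in parental libraries, and to between 1387223 and 1726786 in H226. NF1 itself had 29 to 89 counts in the 3 NF1 mutant VT107 libraries, 70 to 77 in NF1 mutant DMSO, 361 to 853 in parental VT107 and 377 to 867 in parental DMSO. The library labelled NF1 mutant VT107 replicate 1 stood apart: its correlation with the others of its group was 0.81 to 0.83, and 111 genes with a mean above 5 CPM (counts scaled to library size) were at 0 in it, against 0 to 5 in the other H2052 libraries. The VT107 tests of AMOTL2, WWC1 and PTPN14 in NF1 mutant cells are given with and without it. Group means include it, and some other results are given only with it or only without it. Parental libraries numbered 3 also stood apart, at 0.92 to 0.95 with their own groups. Of 8 mesothelial markers 6 or 7 exceeded 1 CPM in every library of a given H2052 group. In H226 the rows under all 8 names did, but they appear to hold opposite-strand reads, as set out below, and do not show marker expression. The 2 of 3 endothelial markers that had a row summed to at most 0.144 CPM in H2052, 6 leukocyte markers to at most 8 CPM and 2 epithelial markers to at most 0.447 CPM. The 3 fibroblast markers, nearly all of it PDGFRA, summed to 5.98 to 34.3 CPM in NF1 mutant VT107, 19.3 to 25.2 in NF1 mutant DMSO, 25.5 to 84.6 in parental VT107 and 14.5 to 29.9 in parental DMSO, with the 5.98 in the library that stood apart. The H226 table read as if counted on the other strand. In 43 pairs, a gene with at least 3000 counts in parental H2052 lay with 90% of its length inside a gene of the other strand that had 20 times fewer, and in H226 the outer gene had the higher count in 43 of 43.

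TEAD factors bind the core GGAATG, so the member promoters that hold it are shown, with the other promoters of AMOTL2 and WWC1, the members called lower in VT107 in H2052 cells under some settings. A promoter window of 250 bases before and 50 after each start was found in RefSeq (GRCh38.p14) for 9 of the 10 members, 12 windows in all. GGAATG, or its reverse complement CATTCC, was present in 3 windows, those of LATS2, PTPN14 and 1 of the 2 AMOTL2 starts, against 14.0% of 35116 promoters. The AP-1 core TGACTCA, or TGAGTCA, was in no member window, against 4.95% of all promoters. The following 30-base stretches carry the TEAD core in capitals, on the strand of the gene.
AMOTL2, chr3:134374499-134374528, minus strand: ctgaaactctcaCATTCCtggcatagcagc
PTPN14, chr1:214551785-214551814, minus strand: cctcccgggccgCATTCCtccccgcccccg
LATS2, chr13:21061560-21061589, minus strand: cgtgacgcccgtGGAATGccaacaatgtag
The AMOTL2 copy began 69 bases before its start, the PTPN14 copy 200 bases before, and the LATS2 copy at base 10 of the transcript. GENCODE annotates the 147 bases nearest that AMOTL2 start as exon, so the AMOTL2 copy lay in exon sequence. Which transcript the exon belongs to was not looked up. The window of the other AMOTL2 start and that of WWC1 held no copy. Their exon-free stretches before the start read as follows.
AMOTL2, other start, chr3:134375480-134375667, minus strand: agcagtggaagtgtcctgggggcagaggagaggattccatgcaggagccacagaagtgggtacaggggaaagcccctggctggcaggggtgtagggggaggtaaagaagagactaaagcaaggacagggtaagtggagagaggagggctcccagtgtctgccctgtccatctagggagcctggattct
WWC1, chr5:168291395-168291644, plus strand: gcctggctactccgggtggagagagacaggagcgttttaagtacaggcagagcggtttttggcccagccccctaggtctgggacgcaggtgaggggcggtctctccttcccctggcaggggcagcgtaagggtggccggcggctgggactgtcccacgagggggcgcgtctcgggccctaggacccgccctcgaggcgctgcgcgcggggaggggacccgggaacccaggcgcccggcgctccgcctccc
A match is a description of these letters and not evidence of binding.

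In the hg19 coordinates of the count tables, the MST kinase genes were STK3 (chr8:99413631-99955055, minus strand) and STK4 (chr20:43595115-43708600, plus strand). The LATS kinase genes were LATS1 (chr6:149979289-150039392, minus strand) and LATS2 (chr13:21547171-21635718, minus strand). SAV1 lay at chr14:51098776-51135056 on the minus strand. Of the scaffolds, NF2 lay at chr22:29999545-30094587 and WWC1 at chr5:167718656-167899308, both on the plus strand. PTPN14 lay at chr1:214530851-214725792 on the minus strand, AMOTL1 at chr11:94439597-94609918 on the plus strand and AMOTL2 at chr3:134074716-134094321 on the minus strand. Counts are per whole gene and do not separate exons or isoforms.

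The members spanned a wide range of levels in H2052. Per kilobase of exon, parental DMSO cells had 31.6 ± 2.98 CPM of AMOTL2, 18.6 ± 3.18 of STK4, 11.5 ± 0.694 of AMOTL1 and 6.31 ± 0.834 of WWC1 (SD, n = 3). SAV1 had 3.43 ± 1.21 and STK3 3.29 ± 0.385 CPM per kilobase, and their libraries overlapped. LATS1 followed at 1.13 ± 0.189, NF2 at 0.74 ± 0.119 and PTPN14 at 0.548 ± 0.197 CPM per kilobase, and the NF2 and PTPN14 libraries overlapped. LATS2 was last. In NF1 mutant DMSO cells AMOTL2 averaged 14.1 ± 1.49, AMOTL1 11 ± 2.16 and STK4 10.8 ± 1.54 CPM per kilobase, and the libraries of the 3 genes overlapped. In NF1 mutant VT107 cells AMOTL1 had the highest mean, 14.5 ± 3.05 CPM per kilobase, followed by STK4 at 10.8 ± 4.61 and AMOTL2 at 5.9 ± 2.58.

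LATS2 was next to undetected in H2052. It had 0, 0 and 0 counts in NF1 mutant VT107, 0, 2 and 0 in NF1 mutant DMSO, 1, 0 and 0 in parental VT107 and 1, 0 and 0 in parental DMSO. A count of 0 allows up to 3 counts, or 0.212 to 0.879 CPM depending on the library, so no fold change is given. The other LATS kinase, LATS1, was at 0.57, 15.8 and 15.2 CPM in NF1 mutant VT107, against 9.84, 10.5 and 7.8 in NF1 mutant DMSO. It was at 11.9, 8.41 and 7.06 CPM in parental VT107, against 11.1, 10.3 and 7.96 in parental DMSO. The groups overlapped in both genotypes. The value of 0.57 CPM was 2 counts in the library that stood apart, and NF2 also had 2 there. The filter of 0.5 CPM was set before TMM scaling, where 2 counts fell short of it, so LATS1 and NF2 were not tested in comparisons that include that library.

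The MST kinases phosphorylate LATS and its partners. STK3 was at 62.4, 35.9 and 43.3 CPM in NF1 mutant VT107, against 41.3, 43.6 and 47.6 in NF1 mutant DMSO. STK3 was at 43.7, 34.9 and 30.3 CPM in parental VT107, against 44.7, 43.6 and 35.9 in parental DMSO. These groups overlapped.

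STK4 was at 146, 74.2 and 73.8 CPM in NF1 mutant VT107, against 88.6, 114 and 90.7 in NF1 mutant DMSO. It was at 168, 162 and 82.5 CPM in parental VT107, against 191, 178 and 136 in parental DMSO. The highest NF1 mutant value came from the library that stood apart, and the lowest parental values from the libraries numbered 3.

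SAV1, which holds the MST kinases to their partners, was at 7.98, 8.11 and 10.8 CPM in NF1 mutant VT107, against 14.0, 12.7 and 10.0 in NF1 mutant DMSO. SAV1 was at 20.6, 16 and 7.21 CPM in parental VT107, against 25.9, 19.7 and 12.3 in parental DMSO. Again the groups overlapped, and parental libraries numbered 3 were lowest.

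AMOTL1, the relative of AMOTL2, was at 177, 116 and 144 CPM in NF1 mutant VT107, against 101, 94.3 and 135 in NF1 mutant DMSO. In parental cells it was at 110, 106 and 119 CPM in VT107, against 123, 110 and 114 in DMSO, and the groups overlapped in both genotypes.

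**Figure D1:**
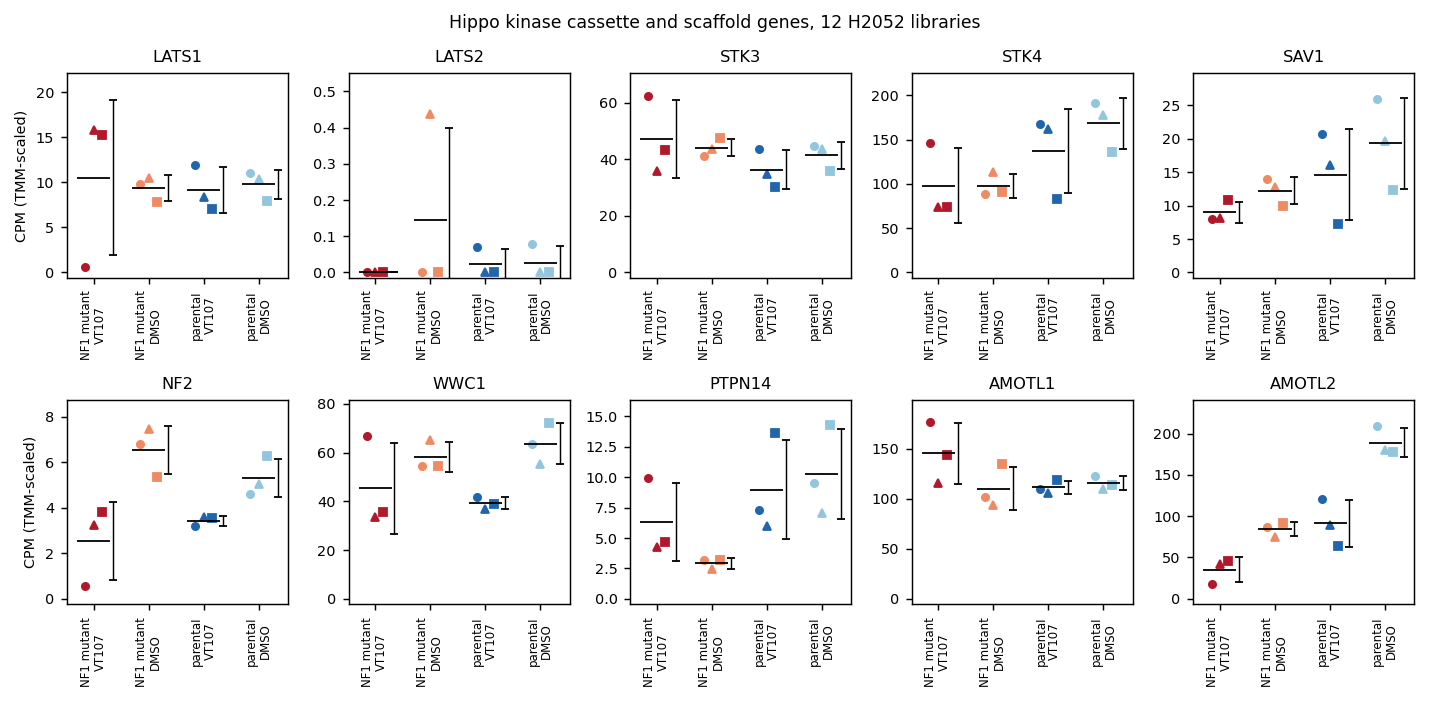
TMM-scaled CPM (y axis, linear) of the 10 members in 12 H2052 libraries, with groups on the x axis. Circles, triangles and squares are replicates 1, 2 and 3, lines are means and bars are SD (n = 3), cut where they pass the lower edge; AMOTL2 lies between 17.7 and 46.3 CPM in NF1 mutant VT107 cells and between 177 and 210 CPM in parental DMSO cells.

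The first comparison asked what TEAD inhibition did to the cassette. In parental H2052 cells AMOTL2 was at 120, 89.9 and 63.5 CPM in VT107, against 210, 180 and 177 CPM in DMSO, with no overlap. WWC1 was at 41.8, 37 and 38.9 CPM in VT107, against 63.4, 55.3 and 72.1 in DMSO, again with no overlap. NF2 was at 3.18, 3.58 and 3.53 CPM in VT107, against 4.63, 5.03 and 6.26 in DMSO, also without overlap, at 40 to 70 counts a library. These were the 3 of 9 tested members lower without overlap, where 6.13% of all 12891 tested genes were lower and 4.37% higher without overlap. The fibroblast marker sum, nearly all of it PDGFRA, was higher in VT107 in each same-numbered parental pair. The other fibroblast markers, DCN and LUM, reached at most 0.715 and 1.42 CPM in any H2052 library. The part of the marker sum in these results was not tested. In bulk RNA, fewer cells of a type and less RNA per cell cannot be told apart.

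The call depended on the pairing of libraries by replicate number. Deviations of same-numbered parental libraries correlated at 0.53 to 0.82. Numbers 1 and 2 also correlated with each other across treatments, at 0.64 and 0.55. These values match the libraries numbered 3 with each other but do not pair the libraries numbered 1 and 2. With the number as a block, AMOTL2 fell by 1.08 ± 0.14 on the log2 scale (SE, n = 3 per group; adjusted p = 0.00834, edgeR quasi-likelihood test) and WWC1 fell by 0.68 ± 0.11 (adjusted p = 0.0238, edgeR). These were 2 of 9 members, where 0.822% of all genes fell, 0.846% rose and 1.67% changed in that fit. Without the block no member and none of 12891 genes passed (edgeR), 474 genes were under 0.05 before adjustment, and DESeq2 called 32 and voomWithQualityWeights 18. AMOTL2 then had a log2 fold change of -1.04 ± 0.24 and WWC1 of -0.68 ± 0.17, each with adjusted p = 0.999 (edgeR). With both libraries numbered 3 left out, AMOTL2 had a log2 fold change of -0.86 and WWC1 of -0.55, with adjusted p of 0.0752 and 0.128 (edgeR), where 0.329% of 13381 genes passed, 0.164% lower and 0.164% higher.

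The kinase genes and their adaptor did not pass in parental cells. With the block, the MST kinase STK4 had a log2 fold change of -0.33 ± 0.13 and SAV1 of -0.43 ± 0.16, with adjusted p of 0.241 and 0.196 (edgeR). NF2 had -0.61 ± 0.24, with adjusted p = 0.24 (edgeR). PTPN14, a phosphatase family member that binds YAP, was at 7.28, 5.99 and 13.6 CPM in VT107, against 9.49, 7.04 and 14.3 in DMSO, and the groups overlapped. LATS1, STK3, PTPN14 and AMOTL1 lay between -0.21 and -0.04 on the log2 scale. All 9 tested members had a negative value in that fit, with a median of -0.33, beside a median of 0.0035 and 49.5% negative over all genes.

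In NF1 mutant cells VT107 went with lower AMOTL2 as well. AMOTL2 was at 17.7, 42 and 46.3 CPM in VT107, against 86.8, 74.6 and 91.9 in DMSO, with no overlap, as for 8.27% of genes that were lower. WWC1 was at 66.7, 33.7 and 35.4 CPM in VT107, against 54.4, 65.4 and 54.6 in DMSO, and the 66.7 CPM came from the library that stood apart. Without that library AMOTL2 fell by 0.93 ± 0.15 (adjusted p = 0.00424, edgeR) and WWC1 fell by 0.75 ± 0.16 (adjusted p = 0.0255, edgeR). That was 2 of 9 members, where 0.715% of genes fell, 0.876% rose and 1.59% changed. With all 6 libraries 0 of 7 tested members and 0 of 11605 genes passed (edgeR), 612 genes were under 0.05 before adjustment, and DESeq2 called 20 and voomWithQualityWeights 164. AMOTL2 then had -1.26 ± 0.38 and WWC1 -0.37 ± 0.32, with adjusted p of 0.774 and 0.785 (edgeR).

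Other members did not pass in NF1 mutant cells. NF2 was at 0.57, 3.25 and 3.81 CPM in VT107, against 6.8, 7.46 and 5.37 in DMSO, and had -0.90 ± 0.34 without the library that stood apart (adjusted p = 0.226, edgeR). PTPN14 was at 9.97, 4.26 and 4.69 CPM in VT107, against 3.22, 2.41 and 3.17 in DMSO. Its groups did not overlap, as for 7.63% of genes that were higher, but the largest value was again in replicate 1 and the log2 fold change was 1.07 ± 0.42 with it and 0.60 ± 0.36 without it (adjusted p of 0.774 and 0.481, edgeR). LATS1 had 0.72 ± 0.23 without that library (adjusted p = 0.153, edgeR).

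**Figure D2:**
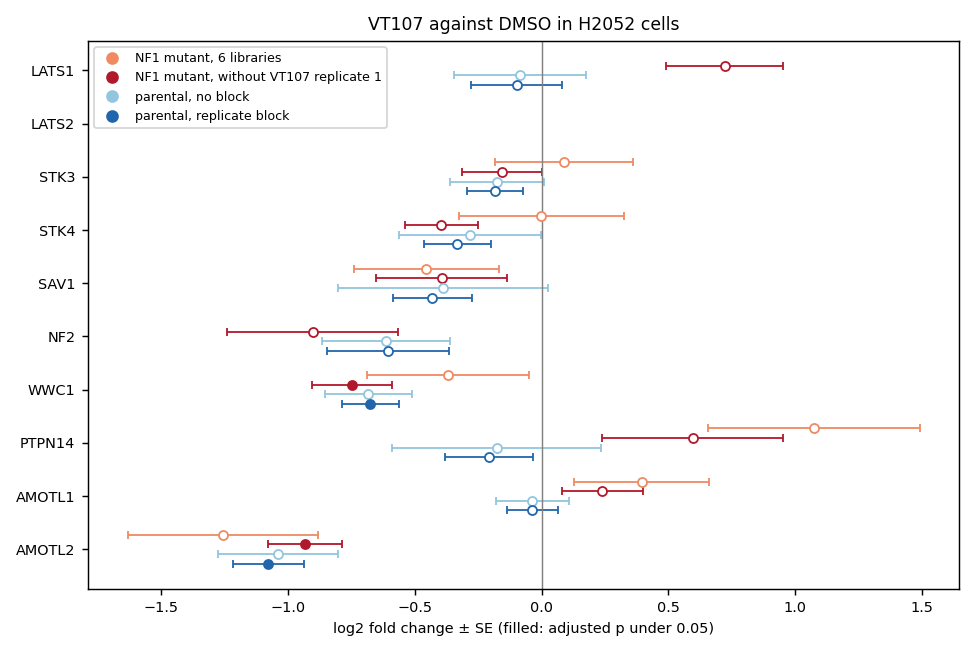
Log2 fold change of VT107 against DMSO (x axis, ± SE) for each member (y axis) in H2052 cells, in NF1 mutant cells with and without VT107 replicate 1 and in parental cells without and with the replicate block. Filled points passed an adjusted p of 0.05 (edgeR); AMOTL2 and WWC1 are filled in the NF1 mutant fit without that library and in the parental fit with the block.

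Whether the VT107 response differed between the genotypes was tested as an interaction over all 12 libraries. No member of 7 and none of 11432 genes passed (edgeR), 78 genes were under 0.05 before adjustment, and DESeq2 and voomWithQualityWeights called 0. AMOTL2 differed by -0.20 ± 0.47 (NF1 mutant minus parental, log2). PTPN14 had the largest member value, 1.27 ± 0.61, with an unadjusted p of 0.0589, and 0.79 ± 0.59 without NF1 mutant VT107 replicate 1. These standard errors do not show that the responses were alike.

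As a check of the treatment, known output genes were examined. Of 10 YAP/TAZ-TEAD output genes 8 fell in parental cells with the block, with a median log2 fold change of -1.36, and SNAPC1 fell by 2.28, while without the block none passed. Without NF1 mutant VT107 replicate 1, 6 of 10 fell in NF1 mutant cells, with a median of -1.47, and NPPB, which encodes a natriuretic peptide, fell by 3.77, while with all libraries none passed. Among the wider Hippo genes, 2 of 17 tested junction and polarity scaffolds fell in parental cells with the block, MPP5 by 0.77 and WWC2, a relative of WWC1, by 0.71. None of 16 kinase partners and activators, 18 LATS and MST inhibitors or 11 genes of YAP and TAZ retention and turnover passed there. In NF1 mutant cells without that library 1 of 18 LATS and MST inhibitors fell, WTIP, by 0.73.

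The second comparison set NF1 mutant against parental cells. In DMSO, 3 of 9 tested members fell and none rose, where 14.9% of 12475 genes fell and 12.5% rose, 27.4% in all. AMOTL2 was at 86.8, 74.6 and 91.9 CPM in NF1 mutant cells, against 210, 180 and 177 in parental cells, and fell by 1.15 ± 0.13 (adjusted p = 0.000524, edgeR). PTPN14 was at 3.22, 2.41 and 3.17 CPM in NF1 mutant cells, against 9.49, 7.04 and 14.3 in parental cells, and fell by 1.79 ± 0.34 (adjusted p = 0.00596, edgeR). AMOTL2, PTPN14 and STK4 did not overlap and were lower, as were 22.6% of genes, beside 21.8% that were higher without overlap.

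STK4 was at 88.6, 114 and 90.7 CPM in NF1 mutant cells, against 191, 178 and 136 in parental cells, and fell by 0.77 ± 0.16 (adjusted p = 0.00964, edgeR). That call was lost without NF1 mutant DMSO replicate 1 (adjusted p = 0.0574, edgeR) and without replicate 3 (0.0518). It was also lost with all 4 H2052 groups in 1 fit (0.172). RP1-211D12.3 overlaps the 3' end of STK4 on the same strand and had 8077 counts over the 12 libraries, so the assignment of reads there is uncertain. SAV1 had -0.63 ± 0.28 (adjusted p = 0.122, edgeR). It was called lower without parental DMSO replicate 3, at -0.86 ± 0.18 (adjusted p = 0.000394, edgeR), and with voomWithQualityWeights, at -0.78 ± 0.19 (adjusted p = 0.00243). LATS1, STK3, WWC1, AMOTL1 and NF2 lay between -0.11 and 0.32 on the log2 scale.

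Parental and NF1 mutant libraries also differed in depth, in column naming and in the mesothelial marker sum. That sum was 2650 to 3676 CPM in NF1 mutant DMSO, against 1249 to 2546 CPM in parental DMSO. Most of it was KRT19, at 1072 to 5330 CPM over the H2052 libraries, while KRT7, the next highest marker, reached at most 278 CPM. The part of the marker sum in the result was not tested. Depth, column naming, and the lentiviral transduction and drug selection of the NF1 mutant cells cannot be told apart from genotype. Of the other lists, 7 of 17 junction and polarity scaffolds fell and 1 rose in DMSO, and WWC3 fell by 1.43. Of 16 kinase partners and activators 3 fell and 3 rose, and MAP4K4, a kinase upstream of LATS, fell by 1.52. Of 18 LATS and MST inhibitors 4 rose and 2 fell, and TRIP6 rose by 0.82. Of 11 genes of YAP and TAZ retention and turnover 3 rose and 2 fell, the 14-3-3 gene YWHAZ rising by 0.75. Of 10 output genes 2 fell, ANKRD1 by 1.23 and CTGF by 0.98. In VT107 no gene of these lists passed with all libraries. Without NF1 mutant VT107 replicate 1, 1 of 16 kinase partners and activators fell there, where 1.19% of all genes fell, and no gene of the other lists passed. NF1 fell by 1.78 in DMSO.

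In VT107 none of 7 tested members and none of 11654 genes passed between the genotypes (edgeR), 1945 were under 0.05 before adjustment, and DESeq2 called 682 and voomWithQualityWeights 3625. AMOTL2 was at 17.7, 42 and 46.3 CPM in NF1 mutant cells, against 120, 89.9 and 63.5 in parental cells, with no overlap, as for 14.1% of genes that were lower and 11.4% that were higher. Its log2 fold change was -1.38 ± 0.44 (adjusted p = 0.191, edgeR) and -1.05 ± 0.30 without NF1 mutant VT107 replicate 1 (adjusted p = 0.124, edgeR), where 0 of 9 members and 1.46% of genes passed, 1.19% lower and 0.278% higher. AMOTL2 was called lower in 2 of 13 alternatives, voomWithQualityWeights and all 4 H2052 groups in 1 fit. Among its 3625 genes voomWithQualityWeights also called STK4 and SAV1 lower (adjusted p of 0.00113 and 0.0297). The genotype and VT107 comparisons share libraries, so these values are not independent of each other.

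**Figure D3:**
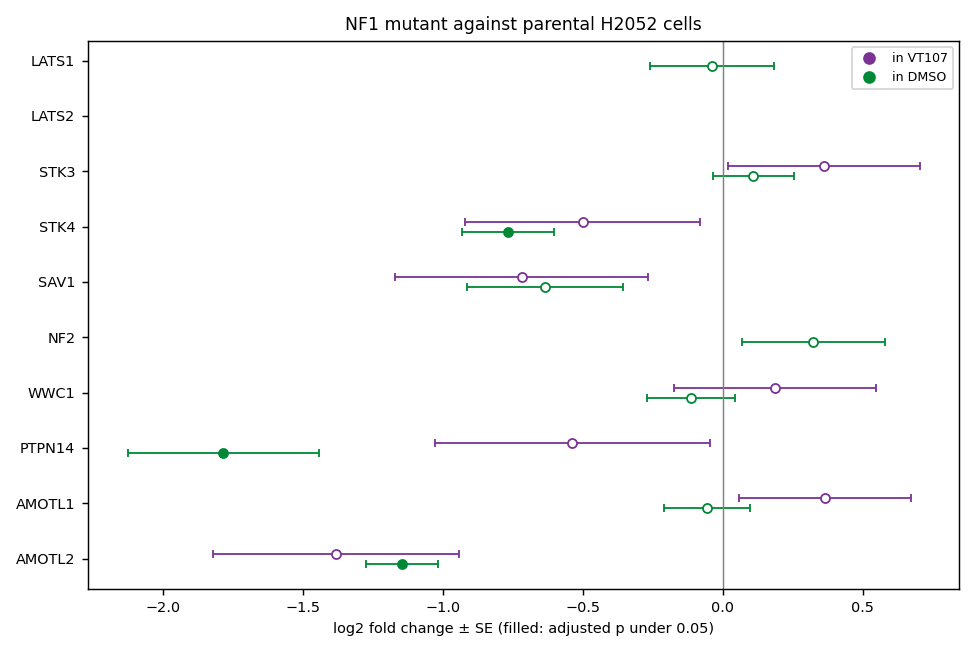
Log2 fold change of NF1 mutant against parental H2052 cells (x axis, ± SE) for each member (y axis), in VT107 and in DMSO, all libraries. Filled points passed an adjusted p of 0.05 (edgeR); in DMSO these are AMOTL2, PTPN14 and STK4, and in VT107 there are none.

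The genes whose pattern over the 12 H2052 libraries was closest to that of AMOTL2 were NEGR1, COL12A1 and WDR3, out of 11432 genes. Their root mean square difference in mean-centred log2 CPM was 0.31, 0.31 and 0.32, beside a median of 1.02 over all genes. They were picked as the smallest differences, so lying below the median follows from the choice. The 12 libraries include the one that stood apart, and the ranking was not repeated without it. LATS2 did not pass the filter for this.

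In H226 the values listed under each name are reads of the opposite strand, and how they relate to the gene's own RNA was not tested. Of 8 tested rows 4 fell in VT107, where 10.5% of 12765 genes fell, 9.08% rose and 19.6% changed. The LATS2 row had 47.9, 54.7 and 53.5 CPM in VT107, against 129, 109 and 117 in DMSO, and fell by 1.19 ± 0.15 (adjusted p = 3.98e-06, edgeR). LATS2, STK3, SAV1 and AMOTL1 were lower without overlap, as were 18% of genes, beside 16.8% that were higher. LATS2-AS1 overlaps LATS2 on the other strand. The 61 H226 counts listed under LATS2-AS1 are likewise reads of the strand opposite to that name, so reads of the pair cannot be assigned with certainty. The SAV1 row had 21.8, 31.2 and 27.0 CPM in VT107, against 39.0, 40.6 and 45.3 in DMSO, and fell by 0.64 ± 0.20 (adjusted p = 0.0276, edgeR), where ATL1 overlaps on the other strand.

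The STK4 row had 27.8, 24.2 and 24.0 CPM in VT107, against 46.7, 46.0 and 27.3 in DMSO, and its groups overlapped. The STK4 row fell by 0.67 ± 0.22 and the AMOTL1 row by 0.99 ± 0.33 (adjusted p of 0.0363 and 0.0369, edgeR). The AMOTL1 row had 11 or 12 counts in VT107 libraries, against 20 in each DMSO library. AMOTL1 is overlapped on the other strand by RP11-867G2.8, with 44 H226 counts listed under its name, and RP11-856F16.2, with 109. STK4 is overlapped on its own strand by RP1-211D12.3, with 211 H226 counts listed under its name. These counts too are reads of the strand opposite to each name, so reads of the AMOTL1 and STK4 rows cannot be assigned with certainty either. Only the LATS2 call held in all 6 fits that left out a library, and DESeq2 called that row alone of the 4. The WWC1 row was highest, at 1482, 1347 and 1309 CPM in VT107, against 1619, 1492 and 1326 in DMSO, and did not pass. The STK3 row had 365, 295 and 328 CPM in VT107, against 456, 425 and 377 in DMSO, with a log2 fold change of -0.35 ± 0.14 (adjusted p = 0.0765, edgeR). The PTPN14 row had 339, 302 and 292 CPM in VT107, against 398, 373 and 317 in DMSO, and the LATS1 row 49.6, 44.5 and 40.2 CPM in VT107, against 60.1, 48.6 and 46.8 in DMSO. Both of these overlapped and did not pass. AMOTL2 had 0 to 4 counts and NF2 0 to 8 and were not tested. The log2 fold change was below 0 in all 8 tested rows, and its median was -0.50, beside -0.0143 over all genes. Of rows listed under other Hippo genes, 2 of 12 kinase partners rose, 4 of 14 junction scaffolds fell and 1 rose, 2 of 14 inhibitors fell and 1 of 10 retention genes fell. All 4 tested output rows fell, and that of F3, the tissue factor gene, fell by 3.04.

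**Figure D4:**
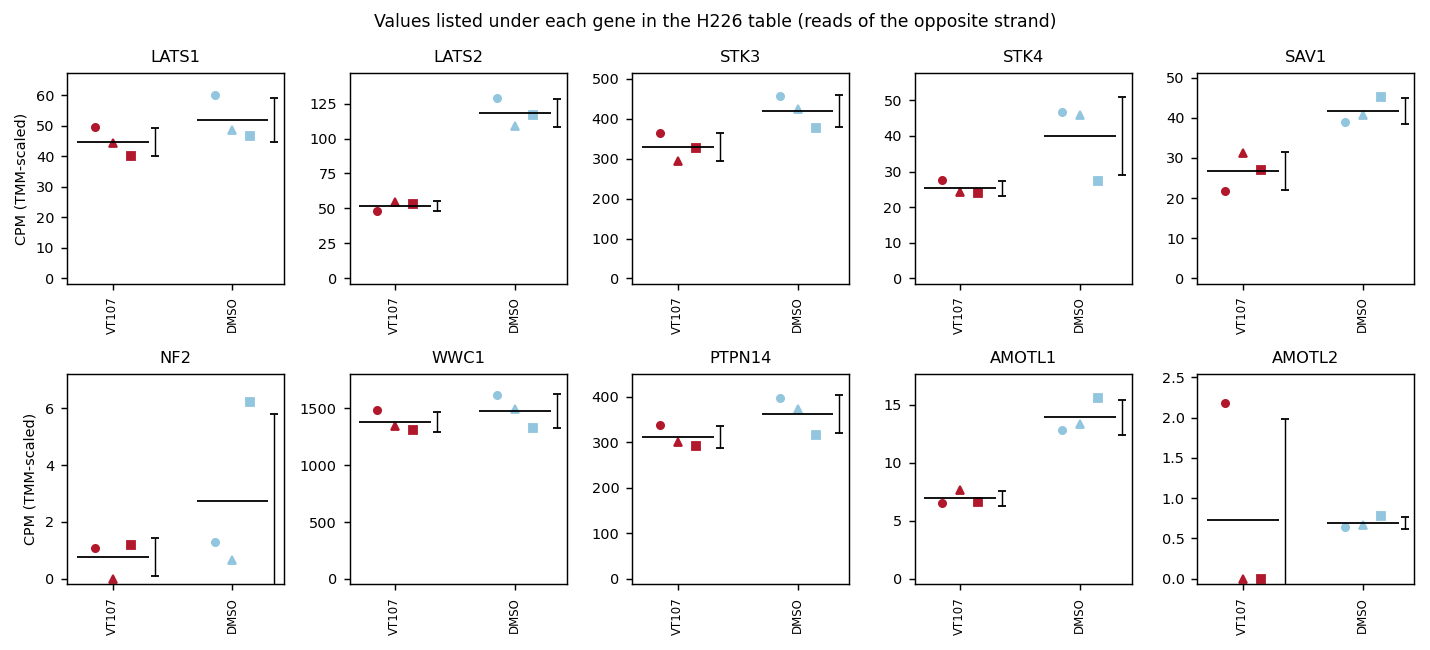
TMM-scaled CPM (y axis, linear) listed under each member in the H226 table, in 3 VT107 and 3 DMSO libraries; the reads lie on the opposite strand. Circles, triangles and squares are replicates 1, 2 and 3, lines are means and bars are SD (n = 3), cut where they pass the lower edge; the LATS2 row lies between 47.9 and 54.7 CPM in VT107 and between 109 and 129 CPM in DMSO.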

How the data were processed

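The deposited H2052 and H226 tables hold raw counts per gene made by the authors, without normalization, on build hg19 with bcl2fastq 2.20.0.422, per the labels. Not given in the sources used here are the aligner, the counter and strandedness. The authors' own p-values and fold changes in the H226 table were not used, nor were 16 siRNA columns that matched no described sample. Software was edgeR 4.0.16, DESeq2 1.42.0 and limma 3.58.1 under R 4.3.3. The test was edgeR's quasi-likelihood test on group alone, with TMM factors, for genes reaching 0.5 CPM, before TMM scaling, in all libraries compared, with Benjamini-Hochberg adjustment over all genes and a threshold of 0.05. Scripts were tested on simulated data. Alternatives were DESeq2, RLE factors, other filters, voomWithQualityWeights, the replicate block, all 4 groups in 1 fit and each library left out. Same-numbered deviations correlated above 0.1 in every pair in parental VT107 against DMSO alone, where numbers 1 and 2 also correlated with each other, and the block is shown there. Members and gene lists were chosen with earlier results of these data known, and from each list up to 3 genes of smallest adjusted p could be named. Likeness used log2(CPM + 0.5). Replicates are described as biological, and p-values measure the spread between them. Exon lengths are from GENCODE. Floors given for counts of 0 cover counting error only. Values after ± are SDs for levels and SEs of the fit for log2 fold changes, and both include the spread between libraries.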

Additional observations from a re-analysis of the deposited data

How the results depend on the processing

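The count of members called moved as follows. The share of all genes called moved with the settings too, where it is given above, so these counts alone show nothing particular to the members. In parental cells the replicate block gave 2 in place of 0. Between genotypes in DMSO the count of 3 ranged from 2 to 4, since STK4 was called in 10 of 13 alternatives and SAV1 in 2 of 13. In NF1 mutant cells VT107 against DMSO gave 1 with voomWithQualityWeights and 0 to 2 when a library was left out. For NF1 mutant against parental in VT107, voomWithQualityWeights gave 3 of 7 tested members, AMOTL2, STK4 and SAV1. That fit also called a large part of all genes, as given above. All 4 H2052 groups in 1 fit gave 1, AMOTL2. In H226 DESeq2 gave 1 and leaving out a library gave 1 to 3. The interaction called 0 under every alternative run. For comparisons other than parental VT107 against DMSO the numbers did not pair the libraries, with same-number correlations from -0.29 to 0.34 in H2052 and from 0.0099 to 0.22 in H226. There the replicate block added STK3 in H226 (5 members in place of 4, adjusted p = 0.0206, edgeR) and changed no other member call. STK3 was also called there with voomWithQualityWeights (5 members, adjusted p = 0.0307) and without DMSO replicate 3 (adjusted p = 0.0381, edgeR).

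Directions turned only for small values that passed no test, and the cause was not tested. In NF1 mutant cells STK3 was -0.10 with voomWithQualityWeights, and STK4 was 0.027 with DESeq2, 0.027 with RLE factors, 0.035 with the filter of 10 counts in 2 libraries per group and 0.0037 with all 4 groups in 1 fit. WWC1 between genotypes in VT107 was -0.18 with voomWithQualityWeights. In the interaction STK4 was -0.17 and WWC1 -0.14 with voomWithQualityWeights, and SAV1 was 0.0069 with the replicate block. With a library left out, values ranged in parental VT107 from -0.32 to 0.064 for LATS1, -0.62 to 0.16 for PTPN14 and -0.091 to 0.0031 for AMOTL1. In NF1 mutant cells they ranged from -0.16 to 0.25 for STK3 and -0.40 to 0.16 for STK4. Between genotypes in DMSO they ranged from -0.22 to 0.043 for AMOTL1 and -0.16 to 0.079 for LATS1, and in VT107 from -0.19 to 0.37 for WWC1. In the interaction they ranged from -0.44 to 0.12 for AMOTL2, -0.38 to 0.29 for SAV1, -0.11 to 0.47 for STK4 and -0.055 to 0.50 for WWC1. Few counts limit LATS2 in H2052, NF2 and PTPN14 in NF1 mutant cells, and AMOTL1, AMOTL2 and NF2 in H226. Leaving out a library leaves 2 in an arm.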
